A study of Solanum lycopersicum with 6 samples.

Results

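Heat shock transcription factors (Hsfs) are the proteins that switch on chaperone genes when proteins unfold, as they do in hot tissue. The 10 members described here are a list of tomato loci given by identifier, by a rule that uses no measured value: HsfA1a, HsfA1b, HsfA2, HsfA3, HsfA4a, HsfA5, HsfB1, HsfB2a, HsfB2b and HsfC1. They were found by identifier among the 35768 gene models of the deposited table. All 10 were present. RNA sequencing had been carried out on the pericarp, or fruit wall, of the fruit shoulder in tomato (cultivar Ailsa Craig of Solanum lycopersicum), sampled at 30 DPA. The 3 wild type (WT) libraries and the 3 slgols2 libraries came from plants grown in a greenhouse with 16 h of light at 25 °C and 8 h of dark at 18 °C, and no heat treatment is named for either group. The slgols2 plants carried a knock-out mutation made by CRISPR-Cas9; GolS commonly stands for galactinol synthase, an enzyme at the start of the synthesis of raffinose family sugars. The labels do not say how many mutant lines were used or whether replicates came from separate plants, and the p-values therefore rest on a spread among libraries that may be purely technical.

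Plant Hsfs bind heat shock elements in promoters as trimers and fall into classes A, B and C by the structure of the region with which they form trimers. Class A factors carry an activator motif and drive transcription. Class B factors lack it, and many act as repressors or, for HsfB1 of tomato, as a partner that strengthens activation. Class C factors also lack the motif and are the least studied. In tomato HsfA1a is regarded as the master regulator that starts the response, and HsfA2 is made from a strongly heat-induced transcript and sustains it. The names follow the list that fixed the members, since the deposited table gives identifiers without names. The reference gene table (assembly SLM_r2.1) holds none of those identifiers, but it has 3 of the 10 names, HSFA1A, HSFA3 and HSTF24 (a synonym of HsfB1), and all 3 lie on the chromosome given in the identifier, at a place in its gene order that differs by less than 5% of its length in genes. For the other 7 the pairing of name and locus was not checked.

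The values are FPKM, fragments scaled by gene length and by library depth. The rule for length is not given, and the lengths may take in introns. Recovered from the FPKM steps, they were 5561, 4779 and 2953 bases for HsfA1a, HsfA3 and HsfB1. From start to end these genes cover 5452, 2607 and 3285 bases in the reference gene table. The recovered length of HsfA3 thus exceeded its whole span there, introns included, and this difference was not resolved. Orders, ratios, sums and shares across genes depend on these lengths. Depth, recovered from the steps between low values, lay between 15590000 and 17940000 fragments a library. The 60 values of the members rest on 93 to 8019 fragments each, which gives a counting error of 1.12% to 10.4%. Correlations of log2(FPKM + 1) between libraries, across genes that are not independent replicates, were 0.924 to 0.958 within WT and 0.957 between slgols2 replicates 1 and 2, but 0.849 and 0.869 between these and slgols2 replicate 3, which correlated with WT at 0.878 to 0.903. Of 7 loci recalled as fruit regulators and pigment genes, 5 reached a mean of 1 FPKM and none was at 0 in every library. The edited gene was not analysed here.

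No member passed the test of slgols2 against WT fruit. All 10 had a mean of at least 1 FPKM and were tested with limma on log2(FPKM + 1). None passed an adjusted p of 0.05 over the 15695 genes tested, of which 36 (0.229%) passed, 0.0701% as higher and 0.159% as lower in slgols2. The log2 change was above 0 for 4 members and below 0 for 6. Its median over the 10 was -0.02, against 0.00128 over all tested genes. HsfB2a, with a log2 change of -0.02, had the higher mean FPKM in slgols2, 53.2 against 45.1 in WT. The lowest adjusted p among the members was 0.409, for HsfA3. At an unadjusted p of 0.05, 1 of the 10 members passed, against 12.0% of all tested genes, and the groups failed to overlap for 1 of the 10, against 19.2% of all tested genes. Both shares are near the background.

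**Figure D1:**
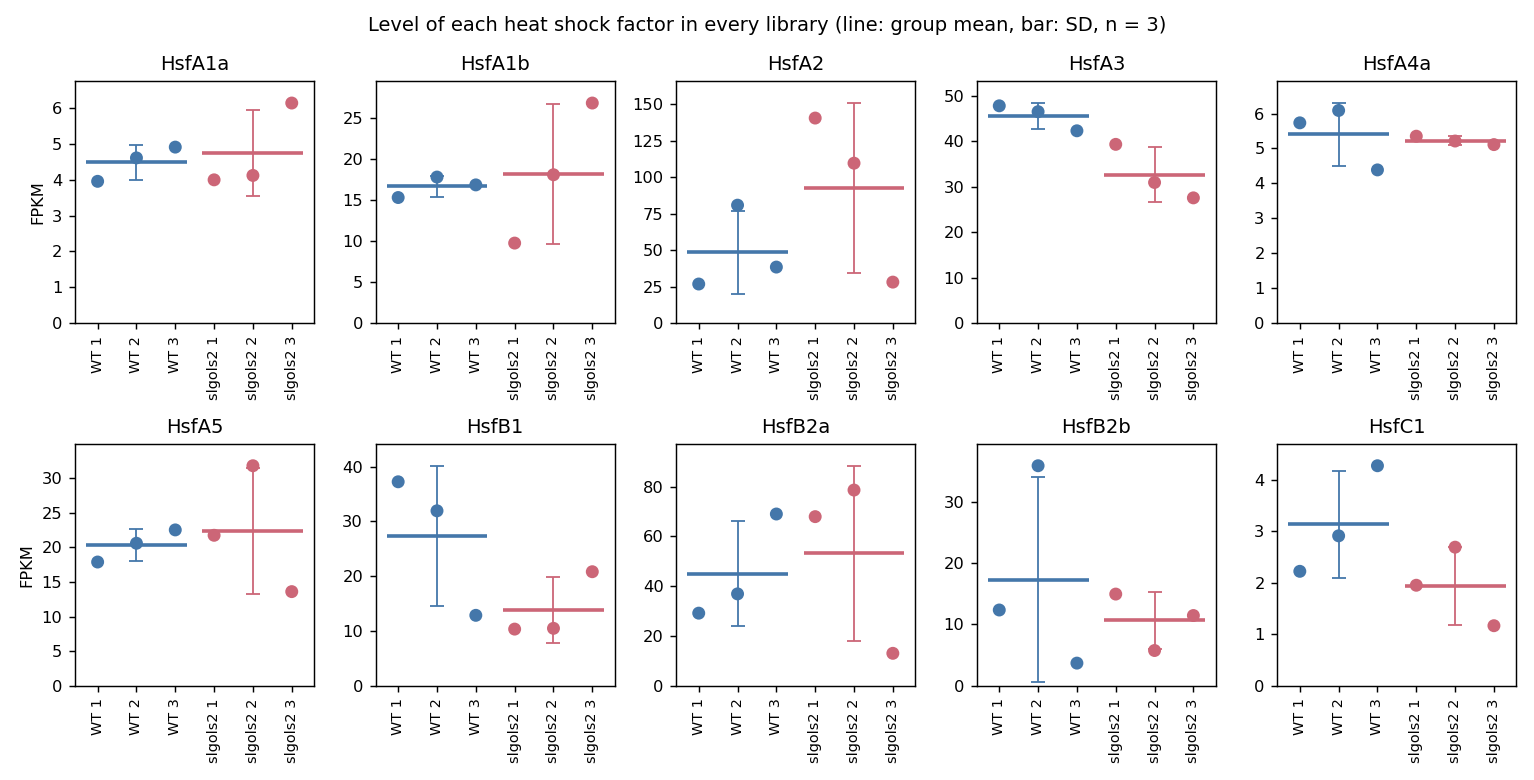
FPKM of each of the 10 factors in every library, with the group mean (line) and SD (bar, n = 3), WT in blue and slgols2 in red; each panel has its own axis from 0. HsfA3 is the 1 factor whose groups do not overlap, while HsfA2, HsfB2a and HsfB2b differ several-fold between libraries of 1 genotype.

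The class A1 factors, which are present before stress and start the response, had overlapping levels in the 2 genotypes. HsfA1a (Solyc08g005170.3, chromosome 8) stood at 3.96, 4.61 and 4.91 FPKM in WT replicates 1, 2 and 3 and at 4.0, 4.12 and 6.14 FPKM in slgols2 replicates 1, 2 and 3. Its groups overlapped, and the highest value was that of slgols2 replicate 3. The log2 change was 0.05 with a standard error of 0.19 and a 95% interval from -0.40 to 0.50 (limma adjusted p = 0.940). HsfA1b (Solyc03g097120.3, chromosome 3) stood at 15.3, 17.8 and 16.9 FPKM in WT and at 9.76, 18.1 and 26.8 FPKM in slgols2. The 3 WT libraries lay close together, whereas slgols2 replicate 1 was below and replicates 2 and 3 were above all of them. The log2 change of HsfA1b was 0.02 with an interval from -0.82 to 0.86 (limma adjusted p = 0.989). HsfA1b had the higher FPKM of the pair in each library, at 3.43 to 3.87 times that of HsfA1a in WT and 2.44 to 4.39 times in slgols2. This order depends on the recovered lengths, 5561 bases for HsfA1a and 2062 for HsfA1b. In slgols2 replicate 1 HsfA1a had more fragments than HsfA1b, 399 against 361.

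HsfA2 (Solyc08g062960.3, chromosome 8), the factor whose transcript is known for building up in heat-stressed tomato, had the highest mean of the 10 in both genotypes. It stood at 26.8, 80.9 and 38.4 FPKM in WT replicates 1, 2 and 3 and at 141, 110 and 28.1 FPKM in slgols2 replicates 1, 2 and 3. Replicates 1 and 2 of slgols2 were above every WT library, and replicate 3 was close to the lowest WT value, so the groups overlapped. Relative to the WT mean of 48.7 ± 28.5 FPKM (SD, n = 3) the slgols2 libraries stood at 2.89, 2.25 and 0.577 times in the order of their numbers. The log2 change was 0.78 with a standard error of 0.69 and an interval from -0.88 to 2.45 (limma adjusted p = 0.693). Without slgols2 replicate 3 it was 1.48, and it still did not pass (limma adjusted p = 0.156). The 3.02-fold difference between the WT libraries rested on 1486 to 4430 fragments and was far larger than counting error.

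The ratio of HsfA2 to HsfA1a and to HsfB1 in the same library was also higher in slgols2 replicates 1 and 2 than in replicate 3, while its ratio to HsfB2a was not. HsfA2 had 6.77, 17.5 and 7.82 times the FPKM of HsfA1a in WT replicates 1, 2 and 3, against 35.2, 26.6 and 4.58 times in slgols2 replicates 1, 2 and 3. Set against HsfB1, it had 0.72, 2.53 and 2.99 times the FPKM in WT and 13.6, 10.5 and 1.35 times in slgols2. Set against HsfB2a, it had 2.07, 1.39 and 2.15 times the FPKM in slgols2. In slgols2 replicate 1 HsfA2 alone made up 44.5% of the summed FPKM of the 10 factors, and in replicate 2 it made up 36.9%. In replicate 3 its share was 18.3%, barely ahead of HsfA3 at 27.5 FPKM.

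HsfA3 (Solyc09g009100.3, chromosome 9), known in Arabidopsis as a later factor under the control of DREB2A, was the 1 member whose groups did not overlap. It stood at 47.8, 46.5 and 42.3 FPKM in WT and at 39.3, 30.9 and 27.5 FPKM in slgols2. All 3 slgols2 libraries lay below the lowest WT library, as they did for 9.59% of all tested genes. The means were 45.5 ± 2.87 and 32.6 ± 6.06 FPKM (SD, n = 3 each). The log2 change was -0.48 with a standard error of 0.19 and an interval from -0.95 to -0.02 (limma adjusted p = 0.409, unadjusted p = 0.0437). The difference therefore did not pass over all genes. HsfA3 was also among the steadier members within a group, with a highest value 1.13 times the lowest in WT and 1.43 times in slgols2.

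HsfA4a and HsfA5 are opposed in their known roles: HsfA4 factors activate, and HsfA5 represses them by pairing with them. HsfA4a (Solyc03g006000.3, chromosome 3) stood at 5.73, 6.09 and 4.39 FPKM in WT and at 5.35, 5.21 and 5.11 FPKM in slgols2. The 3 slgols2 values lay within the WT range, and the log2 change was -0.03 with an interval from -0.40 to 0.34 (limma adjusted p = 0.957). HsfA5 (Solyc12g098520.2, chromosome 12) stood at 17.9, 20.6 and 22.5 FPKM in WT and at 21.7, 31.8 and 13.6 FPKM in slgols2. Here slgols2 replicate 2 lay above and replicate 3 below all WT libraries, and the log2 change was 0.06 with an interval from -0.69 to 0.81 (limma adjusted p = 0.958).

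Among the class B factors HsfB1 (Solyc02g090820.3, chromosome 2) had the largest log2 change of the 10 in size. HsfB1 is a coactivator of HsfA1a in tomato and a repressor of the heat response in Arabidopsis. It stood at 37.2, 31.9 and 12.9 FPKM in WT and at 10.3, 10.5 and 20.8 FPKM in slgols2. WT replicate 3 lay with the low slgols2 values and slgols2 replicate 3 above it, so the groups overlapped. The means were 27.3 ± 12.8 and 13.9 ± 6.01 FPKM (SD, n = 3 each), with a log2 change of -0.87, a standard error of 0.46 and an interval from -1.99 to 0.24 (limma adjusted p = 0.522). When limma's sample quality weights were used, HsfB1 passed with a log2 change of -1.32 (adjusted p = 0.0441). It was then the 1 member of the 10 called, in a fit that called 12.9% of all tested genes.

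HsfB2a (Solyc03g026020.3, chromosome 3) belongs to the same subgroup as HsfB2b, a repressor in Arabidopsis. It stood at 29.2, 36.9 and 69.0 FPKM in WT and at 68.0, 78.7 and 13.0 FPKM in slgols2. Replicates 1 and 2 of slgols2 lay beside WT replicate 3, and slgols2 replicate 3 was the lowest of all 6, a 6.03-fold range within that genotype. The log2 change was -0.02 with an interval from -1.75 to 1.71 (limma adjusted p = 0.996). HsfB2b (Solyc08g080540.3, chromosome 8) stood at 12.3, 35.9 and 3.69 FPKM in WT and at 14.9, 5.75 and 11.4 FPKM in slgols2. Its WT libraries differed 9.71-fold, and all 3 slgols2 values lay between the lowest and the highest of them. WT replicate 3 rested on 93 fragments, with an exact Poisson 95% interval of 2.98 to 4.52 FPKM, and WT replicate 2 on 998, with an interval of 33.7 to 38.2 FPKM; these intervals cover counting error only. The log2 change of HsfB2b was -0.26 with an interval from -2.09 to 1.56 (limma adjusted p = 0.919). The pair did not keep a fixed ratio: HsfB2a had 2.36, 1.03 and 18.7 times the FPKM of HsfB2b in WT and 4.55, 13.7 and 1.14 times in slgols2.

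HsfC1 (Solyc12g007070.2, chromosome 12), the member of class C, had the lowest mean in both genotypes. It stood at 2.22, 2.91 and 4.27 FPKM in WT and at 1.95, 2.69 and 1.17 FPKM in slgols2. Replicates 1 and 3 of slgols2 lay below the WT libraries and replicate 2 among them. The log2 change was -0.50 with an interval from -1.15 to 0.15 (limma adjusted p = 0.529). The length recovered for HsfC1 from the FPKM steps was 14916 bases, the longest of the 10, against 1615 to 5561 bases for the other 9. Its rank by FPKM therefore depends on a length that may take in introns, and it rested on 284 to 993 fragments a library.

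**Figure D2:**
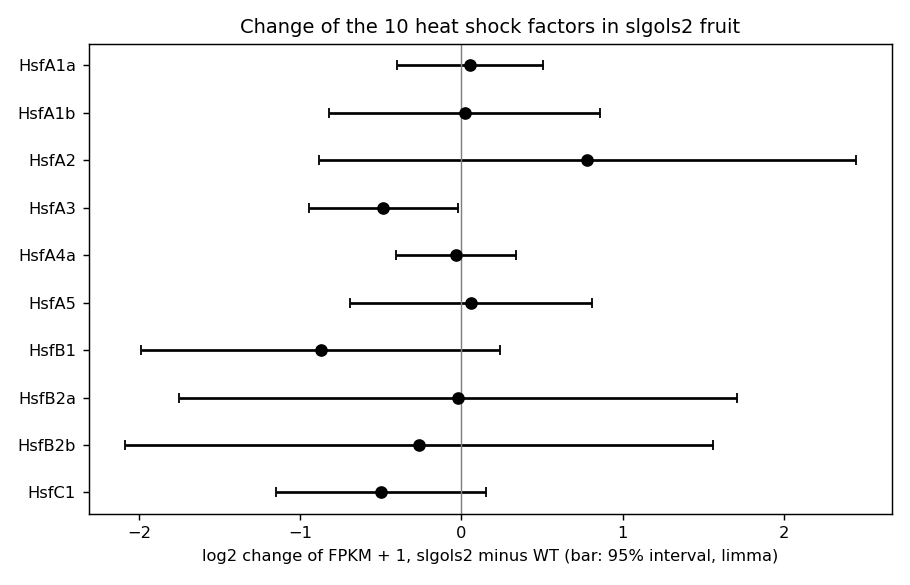
log2 change of FPKM + 1 in slgols2 minus WT for each factor, with its 95% interval from limma (n = 3 each). All intervals but that of HsfA3 include 0, and no factor passed over all tested genes.

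The order of the mean levels in the 2 genotypes had the same first and the same last 3 factors, and most neighbours in it were not separated. In WT it ran HsfA2, HsfA3, HsfB2a, HsfB1, HsfA5, HsfB2b, HsfA1b, HsfA4a, HsfA1a and HsfC1. The libraries of each neighbouring pair overlapped except HsfA1b and HsfA4a, where 16.7 ± 1.26 stood against 5.40 ± 0.898 FPKM (SD, n = 3). In slgols2 the order was HsfA2, HsfB2a, HsfA3, HsfA5, HsfA1b, HsfB1, HsfB2b, HsfA4a, HsfA1a and HsfC1, with gaps between HsfB2b and HsfA4a and between HsfA1a and HsfC1. The factor with the highest FPKM of a single WT library was HsfA3 in replicate 1, HsfA2 in replicate 2 and HsfB2a in replicate 3. In slgols2 it was HsfA2 in all 3.

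How steady a factor was within a genotype differed widely among the 10. The within-group SD of log2(FPKM + 1) was 0.15 for HsfA4a, 0.19 for HsfA3 and 0.22 for HsfA1a, below the median of 0.28 over all tested genes. It was 1.03 for HsfA2, 1.08 for HsfB2a and 1.14 for HsfB2b, at percentiles 96.0, 96.5 and 97.2 among all tested genes. For these 3 the libraries of 1 genotype differed more than the genotype means did.

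The share of class B in the summed level of the 10 factors was lower in each slgols2 library than in any WT library. Class B made up 39.7%, 36.9% and 39.0% of the summed FPKM in WT replicates 1, 2 and 3 and 29.5%, 31.9% and 29.5% in slgols2 replicates 1, 2 and 3. Class A made up 59.2%, 62.1% and 59.0% in WT and 69.9%, 67.2% and 69.8% in slgols2. Class C made up 1.02% to 1.95% in WT and 0.617% to 0.904% in slgols2, so its shares did not overlap either. The shares of a library add up to the whole, so a rise in 1 class lowers the others. Of single tested genes, 9.59% had the FPKM of every slgols2 library below that of every WT library. That figure is no background for a share of summed genes. The class shares were computed after the members' values had been seen and were not tested. The class B sum itself was 93.3 and 94.9 FPKM in slgols2 replicates 1 and 2, within the WT range of 78.8 to 104.7 FPKM. The class A sum was 221 and 199.8 FPKM in slgols2 replicates 1 and 2, where HsfA2 was high, and 107 FPKM in replicate 3, where the class B sum was also lowest at 45.3 FPKM.

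**Figure D3:**
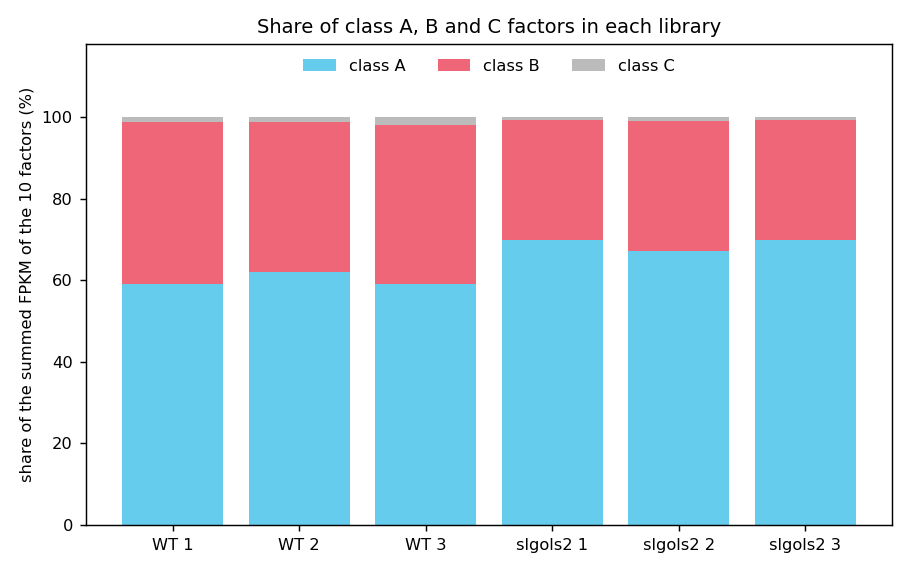
Share of class A (6 factors), class B (3) and class C (1) in the summed FPKM of the 10 factors, in percent, for each library. Class B makes up 36.9% to 39.7% of the bar in WT and 29.5% to 31.9% in slgols2.

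Another 14 loci recalled from the literature as tomato Hsfs were described in the same way. Of these, 8 reached a mean of 1 FPKM and none passed over all genes, with 6 higher and 2 lower in mean and a median log2 change of 0.17. At an unadjusted p of 0.05, 1 was higher and 1 lower, against 5.24% and 6.72% of all tested genes. The highest log2 changes were those of Solyc02g072000.3, at 1.00 (standard error 0.33, limma adjusted p = 0.332), and of Solyc09g065660.3, at 0.46 (adjusted p = 0.596). Solyc02g072000.3 stood at 7.40, 5.18 and 3.68 FPKM in WT and 14.0, 14.4 and 7.35 FPKM in slgols2, where replicate 3 again lay within the WT range. The lowest were those of Solyc06g053960.3, at -0.92 (standard error 0.24, limma adjusted p = 0.243), and of Solyc07g055710.3, at -0.05 (adjusted p = 0.986). Solyc06g053960.3 stood at 30.7, 19.7 and 31.6 FPKM in WT and at 15.6, 11.5 and 14.3 FPKM in slgols2, so that its groups did not overlap. The other 6 loci were under the filter, and their names are not paired with identifiers in the sources used here.

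The chaperone genes that Hsfs are known to control mostly stood far above WT in slgols2 replicates 1 and 2, though none passed with all 6 libraries. The list, recalled from the literature with earlier results of these data known, holds loci for small heat shock proteins, HSP70, HSP90, HSP101 and MBF1. Of its 29 loci 28 were in the table and 24 were tested. Of these, 22 were higher and 2 lower in mean in slgols2. The median of their log2 changes was 2.97, against 0.00128 over all tested genes. At an unadjusted p of 0.05, 13 were higher and 0 lower, against 5.24% and 6.72% of all tested genes. The fold over the WT mean had a median of 31.6 in slgols2 replicate 1, 17.0 in replicate 2 and 1.501 in replicate 3, and it exceeded 5 for 19, 18 and 2 of the 24. Without slgols2 replicate 3, 15 of the 24 passed (limma, Benjamini-Hochberg), all higher, against 1.78% of all tested genes in either direction and 0.777% as higher, while none of the 10 members and none of the 8 other Hsf loci tested did.

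Solyc03g113930.2 had the highest log2 change of the chaperone list, 7.92 (standard error 2.18, limma adjusted p = 0.273). It stood at 0.846, 0.107 and 0.947 FPKM in WT, on 8, 1 and 8 fragments, and at 3317, 1921 and 7.91 FPKM in slgols2. Solyc11g020330.1 followed with 5.87 (limma adjusted p = 0.299), at 6.91, 6.59 and 3.70 FPKM in WT and 2237, 1423 and 16.7 FPKM in slgols2. The 2 lowest were Solyc07g065840.2, at -0.52 (adjusted p = 0.545), and Solyc09g010630.3, at -0.36 (adjusted p = 0.615). Both were abundant in every library, with 381 to 928 and 419 to 779 FPKM. In slgols2 replicate 1, where the summed FPKM of the 28 chaperone loci was 46347 against 2157 to 2899 in WT, HsfA2 was 2.89 times its WT mean and none of the other 9 members exceeded 1.51 times. In slgols2 replicate 2 the chaperone sum was 27560, HsfA2 was 2.25 times its WT mean and HsfB2a and HsfA5 followed with 1.75 and 1.56 times. In slgols2 replicate 3 the chaperone sum was 1853 and HsfA1b was the highest member, at 1.61 times. By locus, 12 of the 24 tested chaperones lay above the highest WT library there and 6 below the lowest. The shares over all tested genes were 38.1% and 30.3%. By the chaperone sum, to which abundant loci add most, the WT libraries ran the other way. HsfA2 was highest in WT replicate 2, at 80.9 FPKM, where the chaperone sum was lowest at 2157. It was lowest in WT replicate 1, at 26.8 FPKM, where that sum was highest at 2899. The 24 tested loci were split. Solyc06g036290.3 and Solyc06g076020.3 were highest in WT replicate 2, as HsfA2 was, while Solyc07g065840.2 and Solyc08g062340.3 were lowest there. In log2(FPKM + 1) minus the WT mean, the median of the 24 was 0.137, -0.0643 and -0.0716 in WT replicates 1, 2 and 3.

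**Figure D4:**
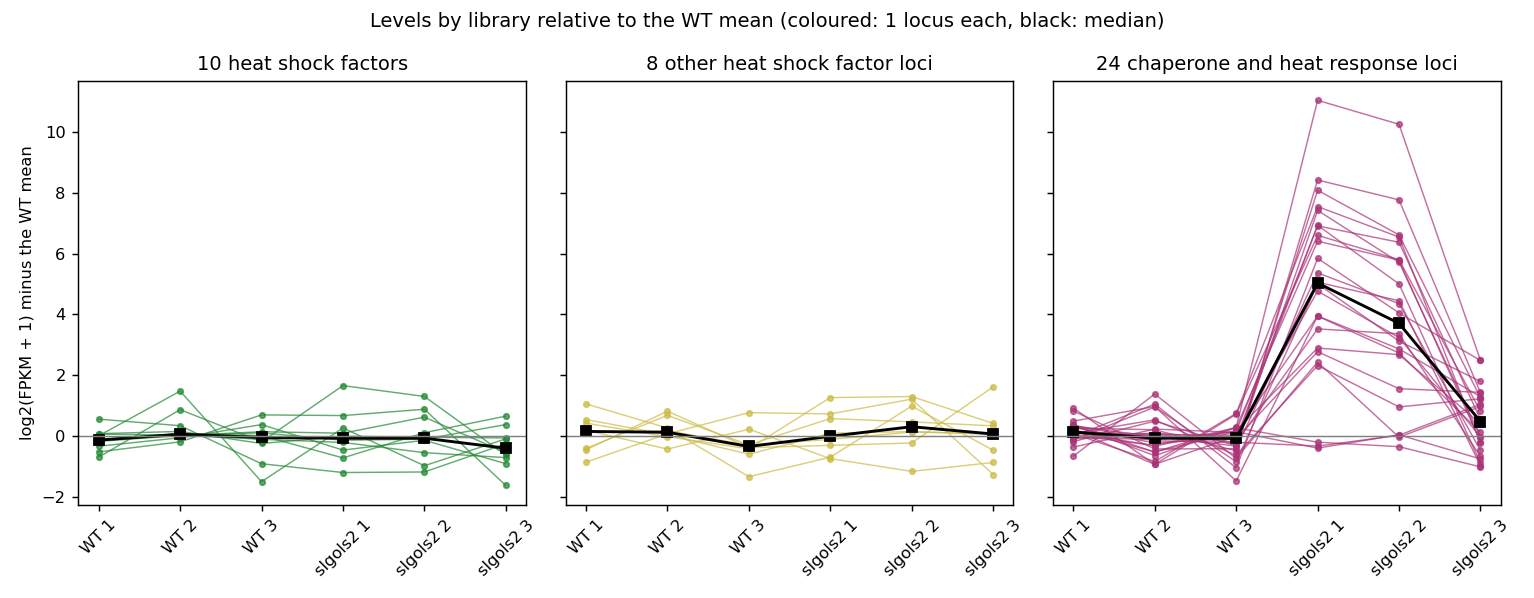
log2(FPKM + 1) minus the WT mean by library for the 10 factors, the 8 other tested Hsf loci and the 24 tested chaperone loci; each coloured line joins the values of 1 locus and black squares are medians. The chaperone median is 5.03 and 3.71 in slgols2 replicates 1 and 2 and 0.48 in replicate 3, while the medians of the 10 factors are -0.07, -0.07 and -0.40.

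Counted by library, the 10 members left the WT range about as often as other genes. In slgols2 replicate 1, 1 member lay above the highest WT library and 4 below the lowest, against 27.7% and 38.5% of all tested genes. In replicate 2 these counts were 4 and 2, against 32.8% and 30.7%, and in replicate 3 they were 2 and 4, against 38.1% and 30.3%. HsfA3 lay below the lowest WT library in all 3 slgols2 libraries, HsfB1 in replicates 1 and 2, HsfC1 in replicates 1 and 3, HsfA1b in replicate 1, and HsfA5 and HsfB2a in replicate 3. HsfA2 lay above WT in slgols2 replicates 1 and 2, HsfA1b in replicates 2 and 3, HsfA5 and HsfB2a in replicate 2 and HsfA1a in replicate 3.

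Markers of another cell layer had lower levels in slgols2, though none passed over all genes. Of 6 loci recalled as epidermis and cuticle genes, 5 were tested and 1 was at 0 in every library, and their summed FPKM was 506 to 578 in WT and 129 to 363 in slgols2. The lowest limma adjusted p among the 5 was 0.0734, and 4 were lower at an unadjusted p of 0.05, against 6.72% of all tested genes. All 5 lay below the lowest WT library in slgols2 replicates 1 and 2, against 38.5% and 30.7% of all tested genes. In replicate 3, 4 lay below it, against 30.3%, and the other 1 lay above the highest WT library. The summed FPKM of 5 seed storage loci was 5.98 to 32.1 in WT and 1.01 to 59.3 in slgols2, highest in slgols2 replicate 2. The part of either in the levels of the Hsfs was not tested. In bulk tissue fewer cells of a type and less RNA per cell cannot be told apart.

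Likeness of pattern was measured as the root mean square difference in log2(FPKM + 1) over the 6 libraries, each gene centred on its own mean, so that a gene with a much larger range counts as unlike. HsfB2b had the largest range of the 10, 2.97 on the log2 scale, and the gene models outside the lists most like it were Solyc02g065000.1 and Solyc01g105300.3, at 0.29 and 0.38. Solyc02g065000.1 stood at 35.3, 75.2 and 9.85 FPKM in WT and 27.2, 21.5 and 29.7 FPKM in slgols2. None of the other members, the other Hsf loci or the chaperones was among the 100 genes nearest to HsfB2b, nor among the 100 nearest to HsfA2. HsfB2a had 1 Hsf locus among its nearest 100, Solyc07g040680.3. That locus stood at 14.5, 28.4 and 46.7 FPKM in WT and 45.3, 63.8 and 10.7 FPKM in slgols2. HsfC1 had 1 chaperone locus among its nearest 100, Solyc09g010630.3. HsfA2, HsfB2a and HsfC1 were looked at in this way after their values had been seen.

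**Figure D5:**
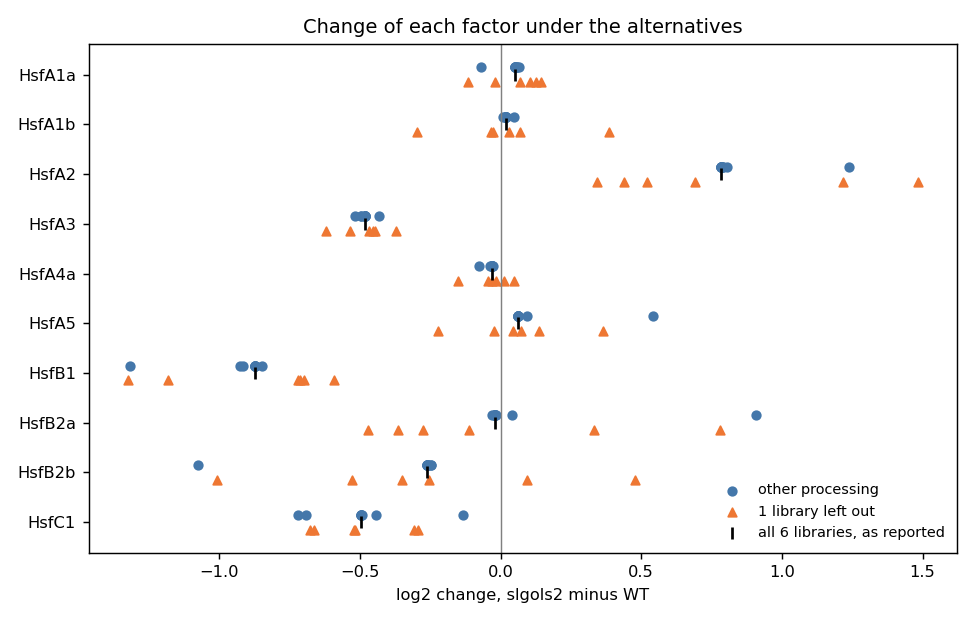
log2 change of each factor with all 6 libraries (black mark), under other processing (blue circles) and with 1 library left out (orange triangles). HsfA2 stays above 0 and HsfA3, HsfB1 and HsfC1 stay below 0 in every alternative run, while the other 6 factors have values on both sides.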

How the data were processed

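Titles placed the RNA sequencing libraries in 2 groups, 3 of WT and 3 of slgols2. The authors deposited 1 table of FPKM values, per the file headers. The submitters' processing notes name HISAT2 2.1.0 and DESeq 1.38.3. For the counter, build, annotation and strand setting nothing is given in the sources used here, so reads of overlapping genes and near-identical copies may not have been told apart. The rule for the members uses no measured value, but members and lists were chosen with earlier results of these data known. Names of the other loci were recalled and are not paired with identifiers in the table.

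Genes with a mean of at least 1 FPKM entered a limma fit (version 3.58.1, R 4.3.3) on log2(FPKM + 1), genotype as the only term, with an intensity trend, two-sided, Benjamini-Hochberg at 0.05. This scale understates changes of low genes. On simulated data with 50 of 15695 genes changed at each size, 28%, 60%, 84% and 86% were recovered at a log2 change of 1, 2, 3 and 4. The changed genes were drawn from those with a mean log2(FPKM + 1) above 2, so the rates do not cover lower genes. They cannot be carried over to genes for which slgols2 replicate 3 stood apart from its group. Nor do they hold for members of wide spread. HsfA2, HsfB2a and HsfB2b had a within-group SD of 1.03, 1.08 and 1.14, against a median of 0.28 over all tested genes. In the measured data the 24 tested chaperone loci had a median log2 change of 2.97, and 0 of them passed. Depths and fragment numbers came from the FPKM steps, where 96.1% of 434 low genes gave a whole length within 0.02 bases and 15694 of the 15695 tested genes gave whole numbers within 0.02 fragments. All 10 members were named; from each other list the 2 tested loci with the highest and the 2 with the lowest log2 change were named, and the 2 gene models nearest to the member with the largest range. Alternatives covered the pseudocount, filter, scaling, empirical Bayes options, weights, replicate block, recovered fragments with limma-voom and each library left out.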

Additional observations from a re-analysis of the deposited data

How the results depend on the processing

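No member passed in the reported fit. Over the 158 values of the 10 members under the alternatives, 16 were on the other side of 0 and 1 passed. HsfA1a was -0.070 with sample quality weights, and HsfB2a was 0.040 with quantile normalization and 0.91 with sample quality weights. Leaving out 1 library gave log2 changes of -0.11 to 0.14 for HsfA1a, -0.30 to 0.39 for HsfA1b, 0.34 to 1.48 for HsfA2, -0.62 to -0.37 for HsfA3, -0.15 to 0.048 for HsfA4a, -0.22 to 0.36 for HsfA5, -1.32 to -0.59 for HsfB1, -0.47 to 0.78 for HsfB2a, -1.01 to 0.48 for HsfB2b and -0.68 to -0.30 for HsfC1. HsfB1 passed with sample quality weights (-1.32, limma adjusted p = 0.0441; 0.207 to 0.874 over the fits without 1 library). That setting called 1 member, 2 other Hsf loci and 19 chaperone loci, against 0 of each in the reported fit, and 2028 genes in all against 36. The count over all genes was 55 without a filter, 15 when the mean had to reach 5 FPKM, 20 when the pseudocount was 0.1, and 1 with limma-voom. Without 1 library it was 7 (WT replicate 1) to 279 (slgols2 replicate 3), and that of the chaperone loci 0 to 15, again without slgols2 replicate 3. The stricter filter leaves fewer genes to test; for the rest the cause was not tested. HsfA1a and HsfC1 could not be fitted at 5 FPKM. A replicate block left 1 gene called and no member, with adjusted p of 0.58 or more for the members. Deviations from the group means correlated at -0.15, 0.089 and -0.165 between libraries of equal number, which gave no sign of pairing. A weak pairing could be missed, with 3 libraries a group and slgols2 replicate 3 apart from its group.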
